A study of Mus musculus with 7 samples.

Results

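The P2X receptors are the family of ATP-gated ion channels encoded by P2rx1 to P2rx7, and their transcript levels are described here in mouse cells with and without Nanog, a DNA-binding protein that helps maintain pluripotency. The members were taken by gene symbol. The family was chosen because P2rx7 stood much higher in Nanog knockout induced pluripotent stem cells than in wild-type (WT) pluripotent cells. That difference is therefore given as a description, with no test. All 7 members were measured, among 22180 genes in all, each by 1 probe set that carries no other gene's symbol.

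The series comprised 7 arrays of 129 strain cells, each array hybridised with 1 sample. They were 2 arrays of Nanog knockout (KO) induced pluripotent stem cells (iPSC), 2 of WT iPSC, 1 of WT embryonic stem cells (ESC), 1 of Nanog KO mouse embryonic fibroblasts (MEF) and 1 of WT MEF. The series was made to compare KO iPSC with WT pluripotent cells, which here means the WT iPSC and WT ESC arrays together (3 arrays). Replicates of iPSC are called biological in the labels. They do not state whether both KO iPSC arrays come from 1 line, and p-values measure only the spread between these samples. The labels name media for ESC, for cells in 2i/LIF and for MEF without saying which sample had which, so medium and group cannot be told apart.

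P2X receptors are trimeric channels that open when extracellular ATP binds and let sodium and calcium into the cell. P2rx7 is the member known for needing high ATP concentrations, for opening a large pore on long stimulation and for driving the NLRP3 inflammasome in macrophages. In mouse ESC, extracellular ATP and P2X receptors have been studied for their effects on survival and proliferation. ATP outside cells is released through channels and vesicles, is broken down to adenosine by ecto-nucleotidases, and acts on P2X channels and on the G protein-coupled P2Y receptors.

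Values are log2 intensities of gene probe sets. Background was judged on each array by the level that 95% of 1394 odorant and pheromone receptor genes stayed below, called the yardstick here, and it lay between 6.30 and 6.50. Between 61.0% and 63.7% of genes lay above it. Nanog, the targeted gene, stood at 7.50 and 7.44 in KO iPSC, against 12.84 and 12.76 in WT iPSC and 12.73 in WT ESC. It stood at 6.42 in KO MEF and 6.53 in WT MEF. Nanog was thus 39.4-fold lower in KO iPSC than in WT pluripotent cells (log2 difference -5.30, SE 0.08, limma with Benjamini-Hochberg adjustment, adjusted p = 3.57e-05), though whether its probe set lies in the deleted part is not stated. For WT cells the labels were set against markers, and 12 of 14 pluripotency markers were higher in WT pluripotent cells than in MEF (15.1% of all genes were) and 8 of 13 fibroblast markers were lower (13% of all genes were). In KO iPSC 4 of the 14 pluripotency markers, Fgf4 (-2.18), Lin28a (-1.85), Utf1 (-1.18) and Tdgf1 (-0.48), were lower than in WT pluripotent cells (limma, beside 8.81% of all genes) and 0 higher. Against WT iPSC alone 5 of the 14 were lower and 1 higher, Tfcp2l1 (0.50), beside 16.5% of all genes in either direction. The summed linear intensity of the 14 was 32510 and 32010 in KO iPSC and 39990 to 41881 on the WT pluripotent arrays. Fibroblast markers were not equal among the pluripotent arrays, where their summed linear intensity was 1488 and 1414 in KO iPSC, against 17121 and 3730 in WT iPSC and 9468 in WT ESC. KO MEF had 67448 and WT MEF 48502.

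P2rx7 lies on chromosome 5 next to P2rx4, and RefSeq lists 2 start sites for it. The 250 bases before each P2rx7 start and before the P2rx4 start are shown because the neighbouring genes share a strand and stretch of chromosome but had very different values in KO iPSC. Sequences are from RefSeq, assembly GRCm38.p6, plus strand, written 5′ to 3′, and the reference strain is not the 129 strain of the cells. Capitals mark matches on either strand to a GC box (GGGCGG) or an AP-1 site (TGAGTCA).
P2rx7 first start, chr5:122643677-122643926: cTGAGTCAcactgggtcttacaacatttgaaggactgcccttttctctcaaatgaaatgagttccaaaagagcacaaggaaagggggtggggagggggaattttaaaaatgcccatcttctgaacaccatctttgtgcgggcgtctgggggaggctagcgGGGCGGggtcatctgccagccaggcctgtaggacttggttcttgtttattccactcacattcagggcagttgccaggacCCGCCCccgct
P2rx7 second start, chr5:122650133-122650382: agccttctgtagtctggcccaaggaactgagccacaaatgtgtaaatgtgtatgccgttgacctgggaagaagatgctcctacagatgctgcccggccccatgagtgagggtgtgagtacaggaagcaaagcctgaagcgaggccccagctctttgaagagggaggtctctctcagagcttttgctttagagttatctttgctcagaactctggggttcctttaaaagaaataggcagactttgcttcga
P2rx4 start, chr5:122707294-122707543: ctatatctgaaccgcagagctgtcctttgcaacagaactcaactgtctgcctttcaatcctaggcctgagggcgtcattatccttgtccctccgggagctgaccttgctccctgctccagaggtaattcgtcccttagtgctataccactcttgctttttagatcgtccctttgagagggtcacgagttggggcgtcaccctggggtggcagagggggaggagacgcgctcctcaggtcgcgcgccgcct
The window before the first P2rx7 start held a GC box 90 bases before the start on the plus strand, another 11 bases before it on the minus strand, and an AP-1 site 249 bases before it. Of 32851 such windows of 27025 genes, 32.7% held a GC box and 4.46% an AP-1 site. The second P2rx7 window and the P2rx4 window held neither. A TATA box (TATAAA, in 12.4% of windows) and the homeodomain site TAATGG, reported for Nanog (in 6.57%), were also searched on both strands, and neither occurred in these 3 windows. No matches overlapped each other. A match describes the letters only, and no match says only that the letters are not in the window. Windows were found for 4 of the 7 members, P2rx1, P2rx4, P2rx6 and P2rx7.

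P2rx7 is the member on whose level the family was chosen. It stood at 12.60 and 12.54 in KO iPSC, against 8.25 and 8.30 in WT iPSC and 7.84 in WT ESC. MEF were lower again, at 7.50 in KO MEF and 7.36 in WT MEF. The KO iPSC arrays nearly coincided and lay far above the other 5 arrays, all of which were still above their background yardstick. The mean was 12.57 ± 0.04 in KO iPSC (SD, n = 2) and 8.13 ± 0.25 in WT pluripotent cells (SD, n = 3), a log2 difference of 4.44, or 21.7-fold. Against WT iPSC alone the difference was 4.30, or 19.6-fold. By signed difference from WT pluripotent cells, largest rise first, P2rx7 ranked 2 among all 22180 genes. That rank belongs to the choice of the family and supports nothing. In MEF the same genotypes differed by 0.14, with 1 array of each and no test, so the KO minus WT difference was larger in iPSC by 4.15 on the log2 scale. Of the other 6 members none passed a test of that difference of effects (limma, adjusted p from 0.078 to 0.974), beside 8.55% of all genes, and 2 of the 6, P2rx4 and P2rx6, reached an unadjusted p of 0.05, beside 25.5% of all genes. In bulk samples, more RNA per cell and more cells that carry the RNA cannot be told apart.

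**Figure D1:**
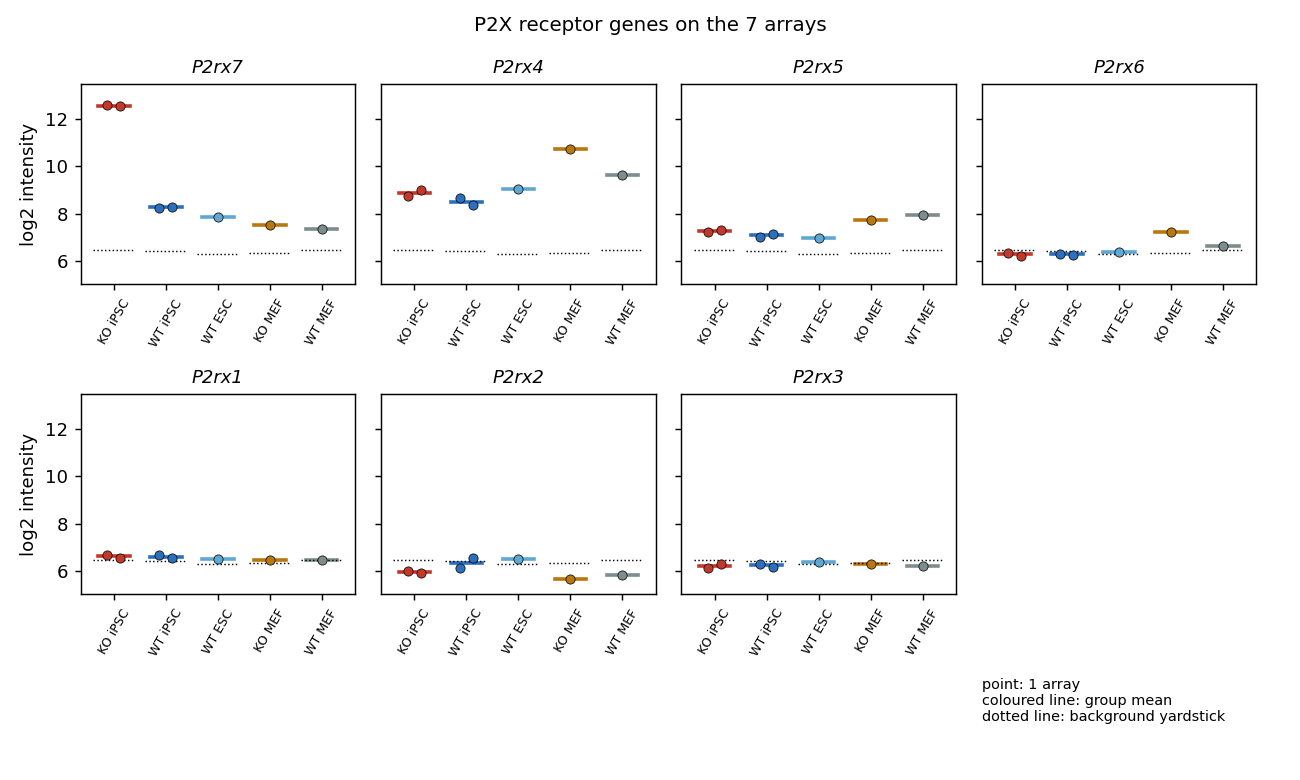
Log2 intensity (vertical axis) of each P2X receptor gene in the 5 groups (horizontal axis). Each point is 1 array, the coloured line is the group mean and the dotted line the background yardstick; P2rx7 stood at 12.60 and 12.54 in KO iPSC and at 8.30 or below elsewhere, while P2rx4 was highest in MEF.

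The other 6 members had much smaller differences. At an adjusted p of 0.05 the count in KO iPSC against WT pluripotent cells was 1 of 7 members, beside 15.7% of all genes, and against WT iPSC alone again 1 of 7, beside 16.5% of all genes. The 1 is P2rx7. The members were chosen on this contrast, and nothing is read from these counts. KO iPSC and WT pluripotent arrays did not overlap for P2rx2, P2rx5 and P2rx7, 3 of 7 members, while 51.6% of all genes did not overlap. The differences of the other 6 ran from -0.45 for P2rx2 to 0.22 for P2rx5.

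P2rx4 encodes a widely expressed member with high calcium permeability, and much of its protein resides in lysosomes. It stood at 8.76 and 8.98 in KO iPSC, against 8.64 and 8.35 in WT iPSC and 9.03 in WT ESC. KO MEF had 10.74 and WT MEF 9.64. The fibroblasts were thus the high samples, and KO iPSC lay within the range of the WT pluripotent arrays (difference 0.20). P2rx4 was 2.85-fold lower in WT pluripotent cells than in MEF (log2 difference -1.51, SE 0.37, 95% interval -2.46 to -0.56, adjusted p = 0.0361 by limma with Benjamini-Hochberg adjustment). Every WT pluripotent array lay below both MEF arrays, but the MEF arrays themselves differed by 1.10, with KO MEF 2.14-fold above WT MEF. The call was lost without WT iPSC replicate 1 (-1.50, adjusted p = 0.0989), WT iPSC replicate 2 (-1.35, adjusted p = 0.117), WT ESC (-1.69, adjusted p = 0.0567) or KO MEF (-0.96, adjusted p = 0.0817), and held without WT MEF (-2.06, adjusted p = 0.0104).

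P2rx5 encodes a subunit that gives small currents by itself in rodents and can assemble with P2rx1 subunits. It stood at 7.23 and 7.30 in KO iPSC, against 7.03 and 7.14 in WT iPSC and 6.96 in WT ESC. KO MEF had 7.73 and WT MEF 7.95. All arrays were above background and MEF were again the high samples. P2rx5 was 1.74-fold lower in WT pluripotent cells than in MEF (log2 difference -0.80, SE 0.12, 95% interval -1.09 to -0.51, adjusted p = 0.00761 by limma). This call held in each run that left out 1 array, with differences from -0.91 to -0.69.

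P2rx6 encodes a subunit that reaches the surface mainly in assemblies with P2rx2 or P2rx4 subunits. It was below background in all 4 iPSC arrays, at 6.32 and 6.22 in KO iPSC, against 6.30 and 6.24 in WT iPSC. WT ESC had 6.36, just above its yardstick, KO MEF 7.24 and WT MEF 6.61. The difference of WT pluripotent cells from MEF did not pass (-0.62, SE 0.20, 95% interval -1.13 to -0.12, adjusted p = 0.0742 by limma), although the groups did not overlap. KO MEF was 1.55-fold above WT MEF. The difference passed without WT MEF (-0.94, adjusted p = 0.00788) and was -0.31 without KO MEF (adjusted p = 0.139).

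P2rx1, the channel of smooth muscle and platelets, varied little across the samples. It stood at 6.67 and 6.54 in KO iPSC, against 6.66 and 6.53 in WT iPSC and 6.50 in WT ESC, with 6.47 in KO MEF and 6.45 in WT MEF. These values lay close to background, above it on 6 of 7 arrays and below it in WT MEF. WT pluripotent cells differed from MEF by 0.10 (95% interval -0.14 to 0.34, adjusted p = 0.518 by limma). Of 7 smooth muscle markers 4 were lower in KO iPSC than in WT pluripotent cells (limma, Benjamini-Hochberg over all genes), beside 8.81% of all genes. Lmod1 (0.11), Myh11 (0.07) and Myocd (-0.07) did not pass. The list's summed intensity was 1177 and 1321 in KO iPSC, 6458 to 10672 on the WT pluripotent arrays, 20222 in KO MEF and 26046 in WT MEF.

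P2rx2 and P2rx3, which together form the ATP channel of sensory neurons, were at or near background. P2rx2 stood at 5.98 and 5.91 in KO iPSC, against 6.12 and 6.55 in WT iPSC and 6.52 in WT ESC. KO MEF had 5.65 and WT MEF 5.81. It was above the yardstick in WT ESC and WT iPSC replicate 2 only. The fitted log2 difference of WT pluripotent cells from MEF was 0.66 (SE 0.16, adjusted p = 0.0361 by limma), which is not a measured size because both MEF arrays and WT iPSC replicate 1 were below background. That call was lost when each array was centred on its median (0.62, adjusted p = 0.0567), after quantile normalization (0.63, adjusted p = 0.0524), and without WT iPSC replicate 2 (0.59, adjusted p = 0.117), WT ESC (0.60, adjusted p = 0.101), WT MEF (0.74, adjusted p = 0.0702) or KO MEF (0.59, adjusted p = 0.133). In a fit of iPSC and MEF with genotype as a covariate it was also lost (0.41, adjusted p = 0.099).

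P2rx3 stood at 6.11 and 6.27 in KO iPSC, against 6.29 and 6.17 in WT iPSC and 6.36 in WT ESC, with 6.27 in KO MEF and 6.19 in WT MEF. Only WT ESC was above its yardstick, and the groups overlapped throughout. WT pluripotent cells differed from MEF by 0.05 (95% interval -0.21 to 0.30, adjusted p = 0.799 by limma). Of 9 neuron markers, Nefl, Nefm and Isl1 were higher in KO iPSC than in WT pluripotent cells (limma, Benjamini-Hochberg over all genes), beside 6.89% of all genes. Tubb3 and Prph were lower, beside 8.81% of all genes. The summed intensity of the 9 was 4682 and 4874 in KO iPSC and 2618 to 3655 on the WT pluripotent arrays. That sum rests largely on Nefl, at 11.50 and 11.53 in KO iPSC and 8.15 to 8.81 on the WT pluripotent arrays. The median of the 9 showed no such rise, at 7.38 and 7.46 in KO iPSC, against 7.65 and 7.34 in WT iPSC and 8.07 in WT ESC.

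Across the family, 4 of 7 members passed in WT pluripotent cells against MEF (P2rx2, P2rx4, P2rx5 and P2rx7), beside 28.1% of all genes, and the call of P2rx2 rests on values below background in MEF. P2rx2 and P2rx7 were higher (15.1% of all genes were) and P2rx4 and P2rx5 lower (13% of all genes were). P2rx7 was 1.63-fold higher (log2 difference 0.70, SE 0.17, 95% interval 0.27 to 1.13, adjusted p = 0.0333 by limma), but its WT arrays also entered the contrast that chose it, so this value is a description. It did not pass without WT iPSC replicate 1 (0.64, adjusted p = 0.0944), WT iPSC replicate 2 (0.62, adjusted p = 0.108), WT MEF (0.63, adjusted p = 0.115) or KO MEF (0.77, adjusted p = 0.0758). WT pluripotent and MEF arrays did not overlap for 6 of 7 members, all but P2rx3, while 54.8% of all genes did not overlap.

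Between WT ESC and WT iPSC, 0 of 7 members passed in limma, beside 0.162% of all genes. At an unadjusted p of 0.05, 2 of 7 did, against 2704 genes (12.2%). For P2rx4 the log2 difference was 0.53 (95% interval 0.09 to 0.98, adjusted p = 0.329 by limma). For P2rx7 it was -0.43 (SE 0.10), again a description. The WT ESC group is 1 array, assumed to vary like the iPSC groups. Between KO MEF and WT MEF, 1 of 7 members differed by at least 2-fold, P2rx4, beside 4.56% of all genes, with no test.

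The genes next to P2rx7 had small differences. The 4 nearest measured protein-coding genes on either side are Gpn3, Anapc7, Atp2a2 and Ift81 before it and P2rx4, Camkk2, Anapc5 and Rnf34 after it, as RefSeq orders them. Camkk2 encodes a calcium-dependent kinase, Atp2a2 a calcium pump of the endoplasmic reticulum, and Anapc5 and Anapc7 subunits of the anaphase-promoting complex. In KO iPSC against WT pluripotent cells, the 8 differences ran from -0.47 for Ift81 to 0.38 for Anapc7. None of the 8 passed (limma adjusted p from 0.129 to 0.748), beside 15.7% of all genes. The smallest unadjusted p of the 8 in limma was 0.0355, for Anapc7. Some nearby genes were not analysed here.

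**Figure D2:**
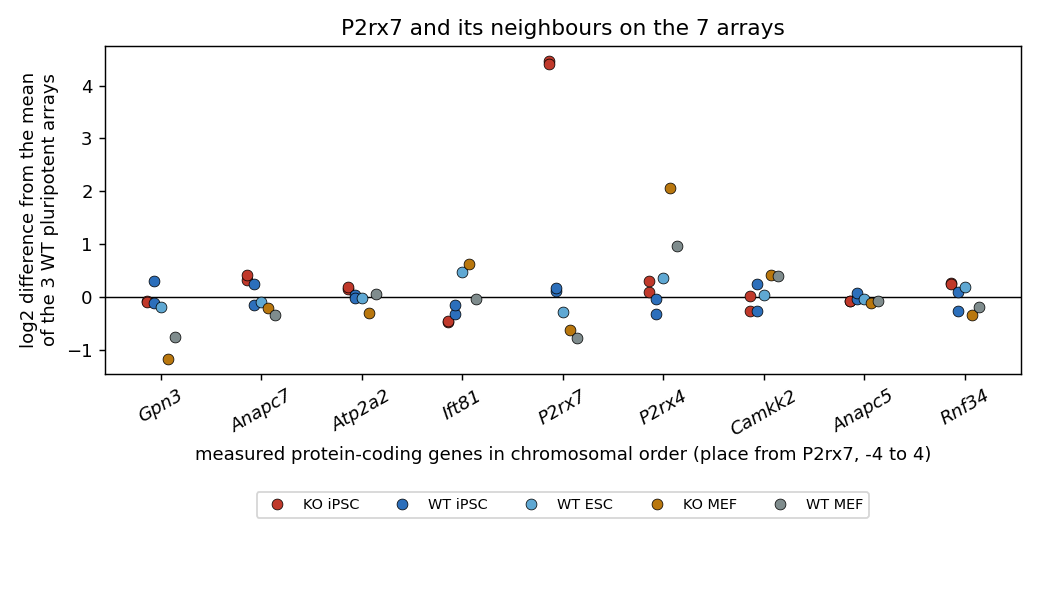
Log2 intensity of P2rx7 and its 8 neighbours on chromosome 5 as the difference from the mean of the 3 WT pluripotent arrays (vertical axis), with genes in chromosomal order (horizontal axis) and 1 point per array. The KO iPSC points of P2rx7 lie near 4.44, while those of the neighbours have means between -0.47 and 0.38.

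The genes whose pattern over the 7 arrays was most like that of P2rx7 were found by Pearson correlation of log2 values among 1433 genes whose range was at least 0.5 times its range of 5.24. The 8 with the highest r were Nefm (0.998), Dmgdh (0.994), Bhmt2 (0.994), Pramel30 (0.994), Fam221a (0.994), Fgfbp1 (0.993), Pdzrn4 (0.993) and Spata31d1b (0.991). Each r is a description over 7 arrays, of which the 2 KO iPSC arrays stand apart from the other 5. Nefm, a neurofilament subunit, stood at 8.74 and 8.83 in KO iPSC and at 5.11 to 5.80 on the other 5 arrays. Dmgdh, a mitochondrial enzyme of choline breakdown, stood at 9.79 and 9.73 in KO iPSC and at 5.33 to 5.82 elsewhere. Bhmt2, a methyltransferase that uses S-methylmethionine, stood at 8.69 and 8.65 in KO iPSC and at 5.61 to 6.05 elsewhere. Of the 8 genes, 6 were below background on every array outside KO iPSC, whereas P2rx7 was above background on all 7 arrays. Fgfbp1, which carries fibroblast growth factors, is on chromosome 5 like P2rx7, and Dmgdh, Bhmt2 and Spata31d1b are all on chromosome 13. Distances and the share of all genes on these chromosomes are not given, so nothing is read from the shared chromosomes.

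**Figure D3:**
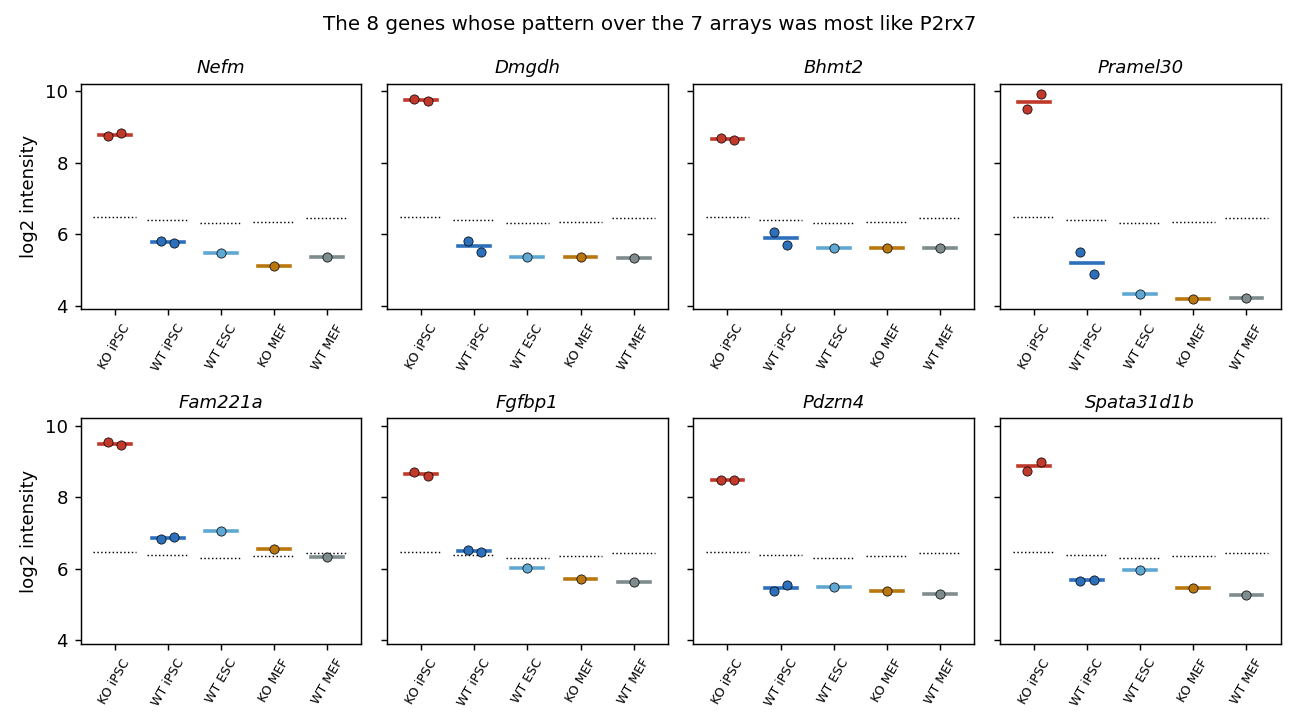
Log2 intensity (vertical axis) of the 8 genes most correlated with P2rx7 in the 5 groups (horizontal axis), with points for arrays, coloured lines for group means and dotted lines for the background yardstick. In each panel the KO iPSC arrays are the high ones, and for Fam221a 4 other arrays lay above the yardstick.

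The rest of the ATP and adenosine pathway was read from 6 lists with 58 genes, of which 52 were measured. In KO iPSC against WT pluripotent cells, 5 of 52 were higher and 9 lower (limma, Benjamini-Hochberg over all genes), beside 6.89% and 8.81% of all genes. The calls rest on both KO iPSC arrays, since 1 gene passed without either KO iPSC replicate 1 or KO iPSC replicate 2, Nt5e in both runs, and 9 passed without WT iPSC replicate 2. Over all genes these 3 runs called 341, 403 and 2230 genes in the same order, against 3483 with all arrays. Fibroblast marker intensity also differed between the same groups, as given above. Among the 14 genes, Lrrc8c, Lrrc8a, Gja1 and Slc29a3 were higher in both MEF arrays than in every WT pluripotent array. WT pluripotent and MEF arrays did not overlap, in either direction, for 54.8% of all genes. In KO iPSC against WT pluripotent cells, Gja1 (1.001) and Lrrc8a (0.50) were higher, and Lrrc8c (-1.13) and Slc29a3 (-1.33) lower. The part of fibroblast RNA in these values was not tested.

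Among P2Y receptors 1 of 8 was higher and 1 lower in KO iPSC, beside 6.89% and 8.81% of all genes. The list median was 0.07, beside 0.03 over all genes. P2ry1, an ADP receptor, stood at 7.76 and 8.03 in KO iPSC, against 7.20 and 6.85 in WT iPSC and 7.16 in WT ESC (log2 difference 0.83, SE 0.15, limma adjusted p = 0.0176). P2ry2, a receptor for ATP and UTP, stood at 6.88 and 7.06 in KO iPSC, against 8.52 and 8.64 in WT iPSC and 7.98 in WT ESC (-1.41, SE 0.21, limma adjusted p = 0.0105). For both genes the KO iPSC and WT pluripotent arrays did not overlap, as for 51.6% of all genes. Of the adenosine receptors only Adora3 was measured, below background on all 7 arrays, and the other 3 were not analysed here.

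Among ecto-nucleotidases 1 of 9 was higher and 2 lower, beside 6.89% and 8.81% of all genes. The list median was -0.10, beside 0.03 over all genes. Nt5e, which encodes CD73 and makes adenosine from AMP at the cell surface, stood at 10.52 and 10.62 in KO iPSC, against 8.32 and 8.27 in WT iPSC and 8.13 in WT ESC. KO MEF had 7.46 and WT MEF 8.05. Like P2rx7, Nt5e was highest in KO iPSC, 5.04-fold above WT pluripotent cells (log2 difference 2.33, SE 0.09, limma adjusted p = 0.00037). Enpp3, an ectoenzyme that splits ATP to AMP, was lower at 9.66 and 9.49 in KO iPSC, against 10.67 and 11.65 in WT iPSC and 12.05 in WT ESC (-1.88, SE 0.39, limma adjusted p = 0.0293). Entpd6 was lower (log2 difference -0.48, SE 0.11, limma adjusted p = 0.0364), but did not pass with arrays centred (-0.43, adjusted p = 0.0518), after quantile normalization (-0.39, adjusted p = 0.0536) or without WT iPSC replicate 2 (-0.53, adjusted p = 0.0621).

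Of 14 ATP release channels and transporters, 3 were higher and 1 lower, beside 6.89% and 8.81% of all genes. The list median was 0.00, beside 0.03 over all genes. Gja1, the gap junction and hemichannel protein connexin 43, stood at 11.83 and 11.80 in KO iPSC, against 10.65 and 10.88 in WT iPSC and 10.90 in WT ESC (log2 difference 1.001, SE 0.10, limma adjusted p = 0.00392). Slc17a9, which loads ATP into vesicles, was higher by 0.79 (SE 0.16, limma adjusted p = 0.0257). Of 5 volume-regulated anion channel subunits, Lrrc8a was higher by 0.50 (SE 0.08, limma adjusted p = 0.0144) and Lrrc8c lower (-1.13, SE 0.22, limma adjusted p = 0.0254). Lrrc8b (-0.76, limma adjusted p = 0.367), Lrrc8d and Lrrc8e (0.12) did not pass.

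Genes of nucleoside transport and adenosine metabolism were lower in KO iPSC in 5 of 11 cases and higher in 0. Of all genes 8.81% were lower and 6.89% higher. The list median was -0.69, beside 0.03 over all genes. Calls of 2 of the 5, Ada and Slc29a3, depended on the processing, as given below. The transporters Slc29a1 (-0.74, SE 0.10, limma adjusted p = 0.00765) and Slc29a2 (-0.73, SE 0.10, limma adjusted p = 0.00936), which carry nucleosides across the plasma membrane, both passed. Ada, which converts adenosine to inosine, stood at 7.25 and 7.43 in KO iPSC, against 8.76 and 8.47 in WT iPSC and 7.97 in WT ESC (-1.06, SE 0.23, limma adjusted p = 0.0343). Ada did not pass after quantile normalization (-0.98, limma adjusted p = 0.0526) or without WT iPSC replicate 2 (-1.03, limma adjusted p = 0.0982). Slc29a3, a lysosomal nucleoside transporter, was lower by its brighter probe set (-1.33, SE 0.16, limma adjusted p = 0.00633), but a dimmer probe set differed by 0.71, and the mean of both did not pass (-0.31, limma adjusted p = 0.122).

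Of the 9 genes of the inflammasome and interleukin 1 list, through which P2rx7 is known to act in macrophages, 0 passed in limma. Of all genes 15.7% did. The list median was 0.02. Likewise 0 of the 9 reached an unadjusted p of 0.05 in limma, and the share of all genes at that threshold is not given here. Casp1, Casp4, Il1a, Il1b and Il18 were below background on all 7 arrays, and Nlrp3 was above it on 1. Of 15 macrophage and haematopoietic markers, Laptm5 (0.89) and Spi1 (0.59) were higher in KO iPSC, beside 6.89% of all genes. Of the same 15, 0 were lower, beside 8.81% of all genes. The summed intensity of the 15 was 4532 and 4681 in KO iPSC and 3539 to 4033 on the WT pluripotent arrays. KO MEF had 2585 and WT MEF 4796. Cd68 and Laptm5 were the brightest of the 15 in KO iPSC. Both were also higher in WT pluripotent cells than in MEF (log2 differences 1.36 and 2.08). The median of the 15 was 6.93 and 6.75 in KO iPSC, within the values of 7.11 and 6.67 in WT iPSC and 6.86 in WT ESC. Ptprc, the pan-leukocyte marker CD45, was the 1 of the 15 markers below background on all 7 arrays, and the other 14 were above it on at least 1 array. On both KO iPSC arrays 9 of the 15 were above background and 5, Ptprc, Adgre1, Cd14, Aif1 and Mpeg1, below it. The part of such cells in the P2rx7 difference was not tested.

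**Figure D4:**
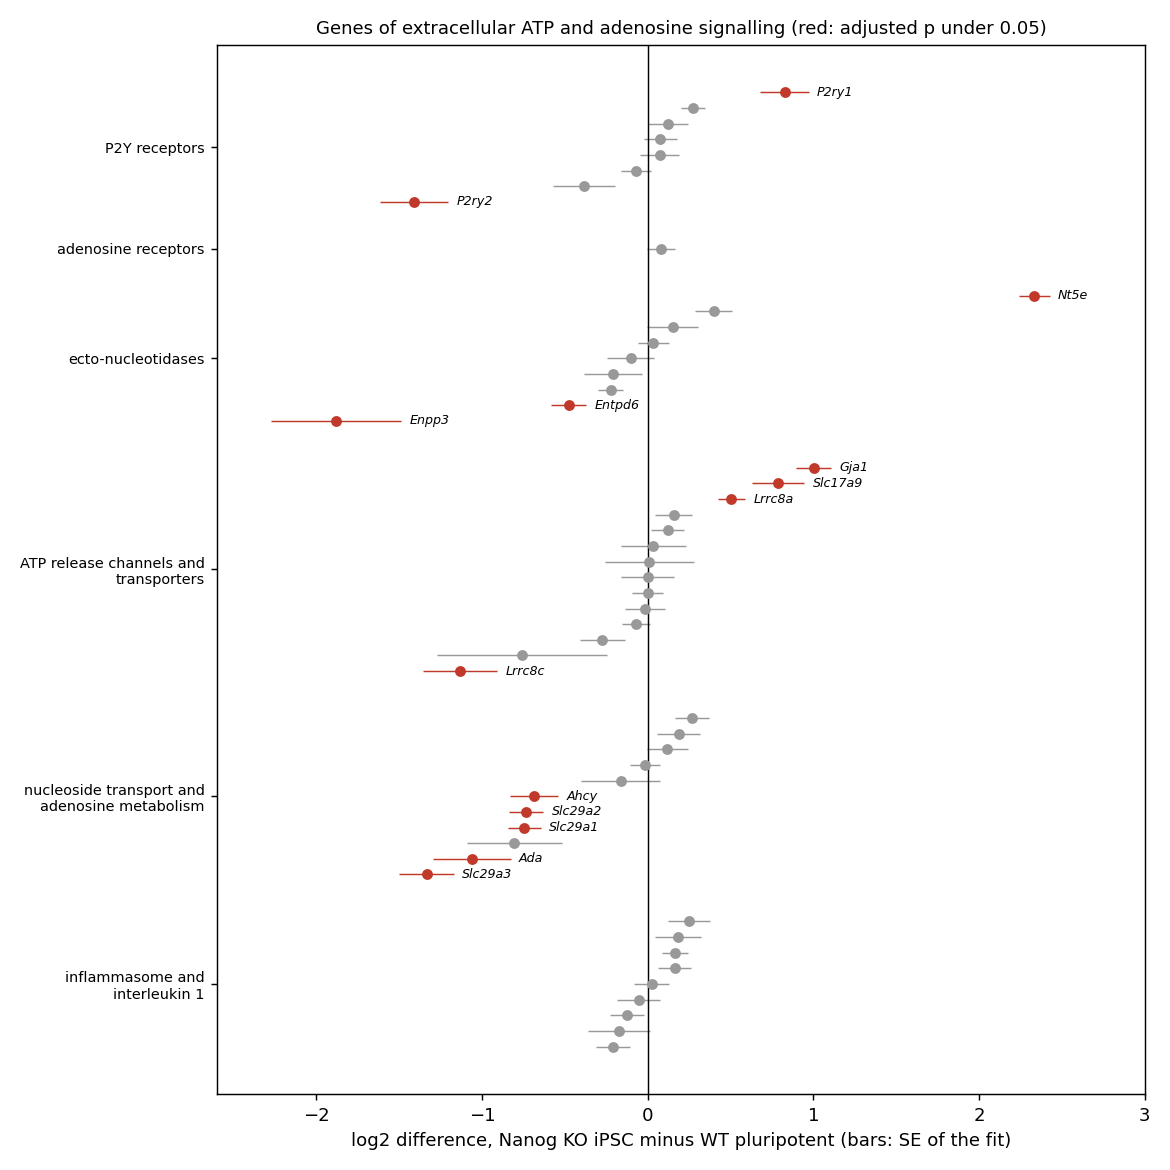
Log2 difference of KO iPSC minus WT pluripotent cells (horizontal axis) for the 52 measured genes of 6 lists (vertical axis), with bars for the standard error of the fit. Red points passed an adjusted p of 0.05 (5 higher, 9 lower), Nt5e lies farthest to the right at 2.33, and no inflammasome gene is red.

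Between WT ESC and WT iPSC, 0 of the 52 pathway genes passed in limma, beside 0.162% of all genes. At an unadjusted p of 0.05, 9 of 52 did, beside 12.2% of all genes. In WT pluripotent cells against MEF, 19 of the 52 passed in limma, beside 28.1% of all genes. Among the 19, P2ry12 (-0.46), P2ry13 (-0.33) and Il1b (0.37) were below background on all 7 arrays, so theirs are not measured sizes. The 19 became 10 without WT iPSC replicate 1, 8 without WT iPSC replicate 2 and 12 without WT ESC. Alpl, an ectophosphatase used as a stem cell marker, was higher by 3.84 on the log2 scale (SE 0.12, limma adjusted p = 0.000211), and Slc17a9 by 1.91 (SE 0.17, limma adjusted p = 0.00247). Among nucleoside genes 4 of 11 were higher and 0 lower, beside 15.1% and 13% of all genes, with Slc29a1 at 1.61 and Slc29a4 at 1.49. P2ry6, a UDP receptor, was lower (-1.44, SE 0.32, limma adjusted p = 0.0272), like P2rx4 and P2rx5. So were the phospholipid scramblase and channel Ano6 (-1.40) and Nek7, a kinase that binds NLRP3 (-1.65). Between KO MEF and WT MEF, single arrays with no test, 6 of the 52 differed by at least 2-fold, beside 4.56% of all genes. Enpp3 (2.16) and P2ry6 (1.005) were above WT MEF in KO MEF, and Lrrc8c (-1.17), Slc29a1 (-1.17), Slc29a2 (-1.24) and Il1a (-1.53, below background on all 7 arrays) below it.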

How the data were processed

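RNA of 7 samples was measured on Affymetrix whole-transcript arrays. The authors deposited linear intensity values per probe set (9.67 to 13043). The submitters' processing notes name RMA and Affymetrix Expression Console 1.3.0.187. The genome build and annotation are not given in the sources used here. The design had assumed log2 values, so log2 was taken, with no further normalization and no filter on dim genes. The table had 33649 probe sets, 23521 with 1 gene symbol in the platform annotation, 1814 with several and 8314 with none. Of those with 1 symbol, 23328 matched RefSeq (GRCm38.p6) by Entrez identifier. The brightest probe set stood for a gene with several (1082 genes), which gave 22180 genes, and 0 columns were unmapped. Groups came from the sample labels. Precision is limited by the number of arrays.

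Differences were tested two-sided with limma 3.58.1 in R 4.3.3 (lmFit, eBayes), adjusted by Benjamini-Hochberg over all genes at a threshold of 0.05. KO iPSC against WT pluripotent and WT pluripotent against MEF were fits of those 5 arrays each, and the others used all 7 arrays with a coefficient for each group. KO MEF and WT MEF are single arrays and were compared with no test. Comparisons share arrays. The fits were tested on simulated data. Members and lists were chosen with earlier results of these data known. The genes named are the 7 members, Nanog, of each list and comparison at most the 4 with the largest differences among those that passed, the 8 most correlated with P2rx7 and its 4 neighbours on either side. Adora3, the dim inflammasome genes, the Lrrc8 subunits that did not pass and some cell type markers were named outside that rule, after their values were seen. Alternatives were scaling, an offset, filters on dim genes, the variance model, the mean of probe sets, each array left out, a replicate block and genotype as a covariate. Leaving out a MEF array and counting pathway genes under all alternatives were chosen after seeing the data.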

Additional observations from a re-analysis of the deposited data

Results flagged for a closer look

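In 6 of the 14 genes of the ATP and adenosine pathway that had passed in KO iPSC against WT pluripotent cells, the KO minus WT difference was not the same in iPSC and in MEF, tested as an interaction in limma over all 22180 genes (8.55% of all genes passed). The 14 were taken for a difference on iPSC arrays that also enter the interaction. Neither their count nor their adjusted p-values are therefore like those over all genes, and they support nothing. Each MEF group is 1 array, assumed to vary like the iPSC groups, so genotype and culture cannot be told apart in MEF. Of 13 fibroblast markers 4 differed by at least 2-fold between KO MEF and WT MEF, beside 4.56% of all genes. The largest difference was in Lum (5.51). Nt5e, the CD73 ectoenzyme, differed by 2.28 in iPSC and -0.59 in MEF (difference of effects 2.87, adjusted p = 0.00415). Gja1, connexin 43, differed by 1.05 in iPSC and -0.60 in MEF (1.65, adjusted p = 0.0141). Enpp3 differed by -1.58 in iPSC and 2.16 in MEF (-3.74, adjusted p = 0.0247). Ada differed by -1.28 in iPSC and 0.46 in MEF (-1.73, adjusted p = 0.0201). Slc29a3 differed by -1.43 in iPSC and 0.37 in MEF (-1.80, adjusted p = 0.0256), from the brighter of 2 probe sets that disagree in sign. P2ry2 differed by -1.61 in iPSC and -0.40 in MEF, the same sign in both (-1.21, adjusted p = 0.0258). Among the P2X members other than P2rx7, which was not tested, none passed this interaction, and P2rx6 came closest (-0.63, adjusted p = 0.078).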

How the results depend on the processing

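The P2rx7 difference of KO iPSC from WT pluripotent cells, on which the family was chosen, ran from 4.30 to 4.54 over the alternatives run, a description that supports nothing. The replicate numbers of KO and WT iPSC share only a name (correlation of their replicate differences 0.0166). With the replicate number as a block on the 4 iPSC arrays, 1 member, 13 pathway genes and 3279 genes passed, and Entpd6 was lost (adjusted p = 0.0764). With 1 replicate left out, 1 to 2 members passed in KO iPSC against WT pluripotent cells, 1 to 3 against WT iPSC (P2rx7 by its choice, and the highest counts without WT iPSC replicate 1, which leaves 1 WT iPSC array), and 1 to 3 in WT pluripotent cells against MEF, where 2 passed without WT ESC, 3 without WT MEF and 1 without KO MEF. Over all genes those runs gave 341 to 4167 calls in KO iPSC against WT pluripotent cells, 519 to 5979 against WT iPSC (3656 with all arrays), 3396 to 4794 in WT pluripotent cells against MEF (6232), and 1 to 2289 between WT ESC and WT iPSC. The last comparison, 36 genes, also gave 23 with 16 added before log2, 22 and 3 without the dimmest genes (the milder and the stricter filter), and 95 with trend and robust fitting. Pathway calls in KO iPSC against WT pluripotent cells were at most 16, and fell as given above with a KO iPSC replicate left out. In WT pluripotent cells against MEF they were 8 to 10 with a WT iPSC replicate left out and 12 without WT ESC. These were fewer than with all arrays. Scaling shifted directions: 43.9% of the genes called in KO iPSC against WT pluripotent cells were higher, 54.1% with arrays centred on their median and 53.0% after quantile normalization, and of the pathway calls 35.7% against 46.7% centred. The sign turned for P2rx3 in WT pluripotent cells against MEF when centred (-0.0019) and with genotype as a covariate (-0.019), and for P2rx2 in WT ESC against WT iPSC with a WT iPSC replicate left out (-0.034 without replicate 1, 0.398 without replicate 2). P2rx7 against MEF was 2.99 with genotype as a covariate (adjusted p = 0.0601), a fit that includes KO iPSC. P2rx6 passed in that fit (-0.65, adjusted p = 0.0315). The cause of these changes was not tested, except that fewer arrays enter when one is left out.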
